A study of Mus musculus with 4 samples.

Results

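Keratins are the intermediate filament proteins of epithelial cells, and 53 of the 22180 genes tested here encode them. A gene counted as a keratin when a row of the value table named it alone and the symbol was Krt followed by a number and at most 1 letter. Keratin-associated proteins were thereby left out, and of 2 rows named Krt18 the row with the higher mean was used. The reference gene table lists 54 keratin genes. The one with no row of its own is Krt5, the type II partner of Krt14 in basal cells, whose only row is shared with Krt6a. By role, the 53 genes comprised 2 basal, 7 suprabasal, 4 stress, 5 simple-epithelial, 24 hair and 11 other keratins.

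Keratin filaments are built from pairs of a type I and a type II protein, and the pair changes as a cell's state changes. Basal cells of the epidermis make Krt5 and Krt14, cells that leave the basal layer switch to Krt1 and Krt10, and wounded or cultured keratinocytes switch on Krt6a, Krt6b, Krt16 and Krt17. Simple epithelia use Krt8 and Krt18, and the hair shaft and its root sheath have keratins of their own.

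The samples were primary keratinocytes from 1-week-old C57BL/6J mice, 4 mice per genotype. The Glut1-deficient genotype was Glut1 fl/fl with K14 Cre, in which the keratin 14 promoter of basal keratinocytes drives Cre, and the WT genotype was Glut1 fl/fl alone, so the floxed alleles are shared by both. Cells were grown in serum-free keratinocyte medium with 0.05 mM calcium chloride, reseeded at equal number after 3 days and harvested after a night in culture, with 2 pooled plates behind each array. There were thus 2 Glut1-deficient and 2 WT arrays, with 1000000 Glut1-deficient and 1500000 WT cells lysed per sample. Low calcium is known to keep mouse keratinocytes largely in a basal state in culture.

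Values are log2 intensities, whose array medians lay between 4.07 and 4.11. Rows differ in how brightly their probes bind, so a level is compared only with the same gene's level on another array. As a guide to rows near background, the 1390 genes of olfactory and vomeronasal receptors, which are not known to be active in keratinocytes, had a median of 2.46 and a 95th percentile of 3.85, here called the receptor level. Among the keratins, 31 had a mean above it and 22 did not. Slc2a1, the gene for Glut1, read 11.01 and 11.01 on the Glut1-deficient arrays, against 11.13 and 11.05 on the WT arrays (limma log2 fold change -0.07, SE 0.0865, adjusted p = 0.675). A second, dimmer row named Slc2a1 read 4.80 and 4.44, against 5.18 and 5.09. Neither row checks the genotype labels, because the positions of the deletion and of the probes are not given here.

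Markers of other cell types differed between the arrays as well. All 9 tested fibroblast markers had positive log2 fold changes, with a median of 0.99 and 0 past the test (limma, 8 at unadjusted p under 0.05). Their summed linear intensity was 1211 and 676 on the Glut1-deficient arrays, against 359 and 319 on the WT arrays, and 1 of the 9, Lum, had a mean under the receptor level. Of 8 melanocyte markers, 4 rose (limma, adjusted p under 0.05, 50% against 1.79% of all genes), 0 fell and the median was 0.57. Their summed intensities were 963 and 1029 against 471 and 378, and Tyr had a mean under the receptor level. Of the 4 that did not pass, Mitf lay above both WT arrays, Tyr and Kit overlapped, and Sox10 lay below both, at a log2 fold change of -0.14. The 10 keratinocyte markers other than keratins had a median of -0.30 and summed to 15912 and 16772 against 18120 and 18165. In RNA from mixed cells, fewer keratinocytes and less keratin RNA per keratinocyte cannot be told apart. The part of these other cells in the keratin values below was not tested.

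Across the family, Krt6b and Krt42 fell, Krt80 rose and the other 50 keratins did not pass (limma, Benjamini-Hochberg adjusted p under 0.05 over all genes). Among all genes tested, 2.84% passed (1.79% rose and 1.05% fell), and among keratins 5.66% passed. With 3 calls in 53 genes the count stood near the background. At an unadjusted p under 0.05 in limma there were 16 keratins (30.2%), against 4923 of all genes (22.2%), and the unadjusted counts given for single lists are to be read against that share. The median log2 fold change was -0.04 over keratins, with 24 positive and 29 negative values, and -0.01 over all genes. Both Glut1-deficient arrays lay below both WT arrays for 16 keratins (30.2%) and above both for 7 (13.2%), against 27.7% and 25.5% of all genes. Keratin log2 fold changes ran from -1.28 for Krt6b to 0.65 for Krt78.

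**Figure D1:**
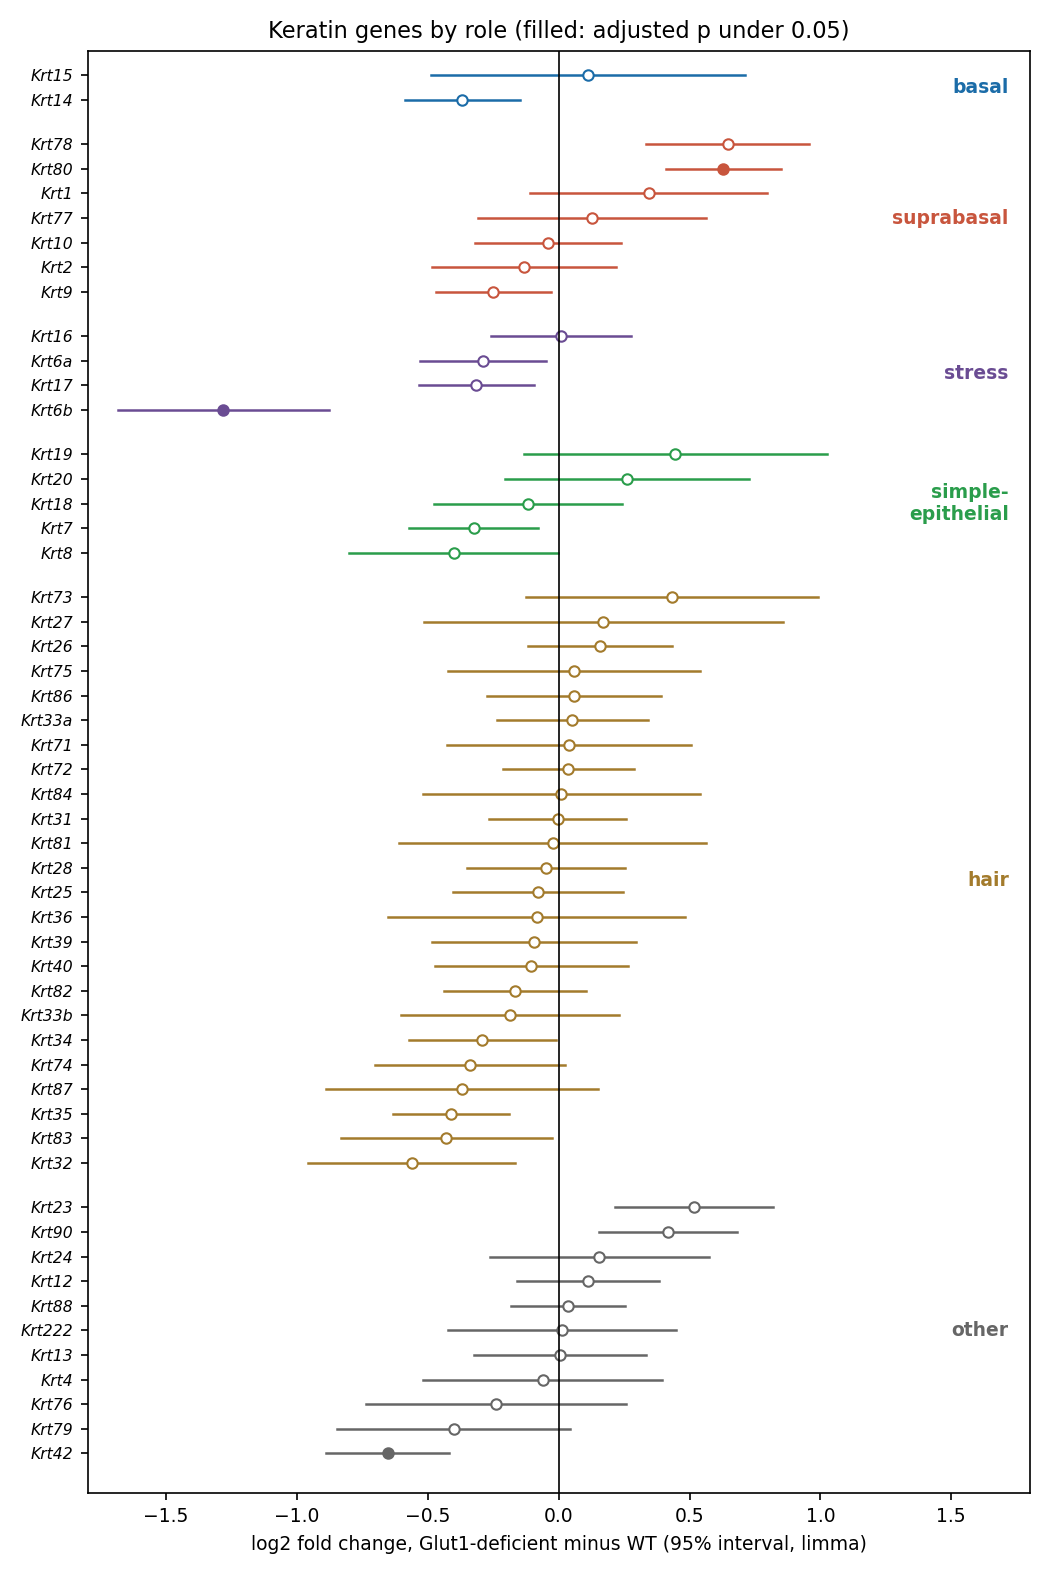
Log2 fold change, Glut1-deficient minus WT, of each of the 53 keratin genes with its 95% interval from limma, grouped by role. Filled points passed at an adjusted p under 0.05. Krt6b and Krt42 lie left of 0, Krt80 lies right of it, and most intervals of hair keratins cross 0.

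With the variance allowed to follow intensity, 8 keratins passed, against 12.0% of all genes. These were the same 3 together with Krt14, Krt17, Krt6a and Krt7, which were lower, and Krt78, which was higher. That setting changes standard errors and not the fold changes, so for these 5 genes the call depends on the variance model. The set of genes tested matters as well. Krt14 and Krt78 passed without a trend when only genes above the receptor level were tested, where 12.8% of genes passed. With any 1 array left out, 0 keratins and 0 genes passed in limma, with 10 to 16 keratins and 2948 to 4627 genes at unadjusted p under 0.05. Each such fit leaves a single array in 1 genotype.

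**Figure D2:**
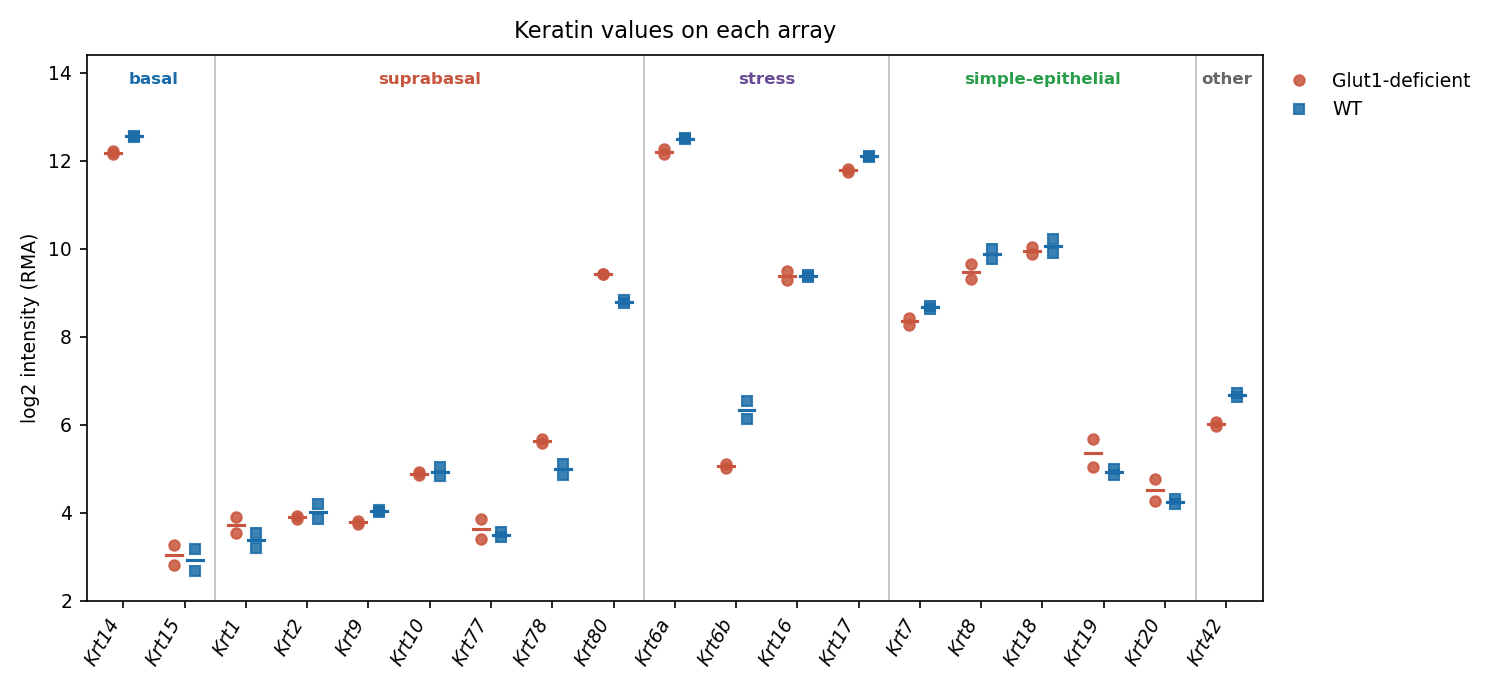
Log2 intensity of the basal, suprabasal, stress and simple-epithelial keratins and of Krt42 on each array, with Glut1-deficient arrays as circles, WT arrays as squares and short lines at the group means of 2 arrays. Krt6b, Krt14, Krt17 and Krt42 are lower on both Glut1-deficient arrays, and Krt80 and Krt78 are higher on both.

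Krt14, which forms the filaments of basal cells with Krt5, read 12.15 and 12.21 on the Glut1-deficient arrays, against 12.56 and 12.54 on the WT arrays. Both Glut1-deficient values lay below both WT values, by more than the arrays of a genotype differed from each other. The log2 fold change of -0.37 (SE 0.0851, 95% interval -0.59 to -0.15) did not pass over all genes (limma adjusted p = 0.0963) and passed with an intensity trend (adjusted p = 0.0018). It also passed when only genes above the receptor level were tested (limma adjusted p = 0.0423). The row that Krt5 shares with Krt6a read 11.98 and 11.99, against 12.58 and 12.52. Its log2 fold change was -0.57 (SE 0.0862, limma adjusted p = 0.051 over 25335 rows with 1 symbol or several), and it cannot be assigned to either gene. Krt15, a type I keratin of basal and hair follicle bulge cells, read 3.27 and 2.81, against 2.67 and 3.18, under the receptor level, and the genotypes overlapped. Of the 2 basal keratins with a row of their own, 0 passed in limma, and 1 had an unadjusted p under 0.05.

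The Krt14 promoter is shown because the promoter of this gene also drove Cre in the Glut1-deficient mice. The sequence is RefSeq's for GRCm38.p6, chr11:100205981-100206280 on the minus strand, from 250 bases before to 50 after the gene start, and whether the transgene holds this mouse stretch is not given in the sources used here.
Krt14: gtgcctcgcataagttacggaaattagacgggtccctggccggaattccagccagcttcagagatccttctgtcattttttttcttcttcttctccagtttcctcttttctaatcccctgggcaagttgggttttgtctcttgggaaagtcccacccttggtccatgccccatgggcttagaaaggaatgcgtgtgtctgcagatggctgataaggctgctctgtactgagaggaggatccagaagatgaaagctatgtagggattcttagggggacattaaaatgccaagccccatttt

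Of the suprabasal keratins Krt80 rose, and the classical pair of differentiating cells showed no difference that passed. Krt80, a type II keratin found near desmosomes in human cells that begin to differentiate, read 9.43 and 9.42 on the Glut1-deficient arrays, against 8.76 and 8.83 on the WT arrays. The groups did not overlap, and the arrays of each genotype lay within 0.07 of each other. It was 1.55-fold higher in Glut1-deficient cells (log2 fold change 0.63, SE 0.0855, limma adjusted p = 0.0397), and between 0.59 and 0.66 on the log2 scale with any 1 array left out.

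Krt78, a type II keratin of suprabasal cells in mouse epidermis, read 5.59 and 5.67, against 4.85 and 5.12. Both Glut1-deficient arrays were above both WT arrays. The log2 fold change of 0.65 (SE 0.12, 95% interval 0.34 to 0.96) did not pass (limma adjusted p = 0.0667), and it passed with an intensity trend (adjusted p = 0.0254) and when only genes above the receptor level were tested. In that last setting 12.8% of genes passed, 7.03% higher and 5.75% lower in Glut1-deficient cells.

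Krt10, the type I keratin of spinous cells, read 4.87 and 4.92, against 4.83 and 5.04. Its partner Krt1 read 3.54 and 3.90, against 3.54 and 3.21, with a mean under the receptor level. The genotypes overlapped for both, and the 95% intervals of the log2 fold change were -0.32 to 0.24 for Krt10 and -0.11 to 0.80 for Krt1. Krt2, a keratin of the upper suprabasal layers, and Krt77 overlapped between the genotypes too, at log2 fold changes of -0.13 and 0.13. Krt9, known from the thick epidermis of palms and soles, read 3.76 and 3.81, against 4.02 and 4.05, and its log2 fold change of -0.25 did not pass (limma adjusted p = 0.184). Over the 7 suprabasal keratins, 1 rose, 0 fell and 6 did not pass (limma, 3 or 42.9% at unadjusted p under 0.05). The median log2 fold change was 0.13. The median was -0.01 without Glut1-deficient array 1 and 0.06 without WT array 1. With only the 5 suprabasal keratins above the receptor level it was -0.04.

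The Krt78 promoter is shown as that of the keratin with the highest log2 fold change. It is RefSeq's for GRCm38.p6, chr15:101954238-101954537 on the minus strand, over the same window around the gene start.
Krt78: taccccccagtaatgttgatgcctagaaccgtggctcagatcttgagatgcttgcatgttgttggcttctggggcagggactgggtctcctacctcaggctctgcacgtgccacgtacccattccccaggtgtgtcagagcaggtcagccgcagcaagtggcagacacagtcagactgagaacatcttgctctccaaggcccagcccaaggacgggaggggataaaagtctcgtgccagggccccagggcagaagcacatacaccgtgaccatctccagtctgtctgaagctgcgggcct

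Of the 4 stress keratins, which wounded and cultured epidermis makes, 1 fell and 3 did not pass. In limma 3 of the 4 had an unadjusted p under 0.05 (75%, against 22.2% of all genes). Both Glut1-deficient arrays lay below both WT arrays for 3 (75%, against 27.7%) and above both for 0 (against 25.5%). Krt6b, a type II keratin of hyperproliferative epidermis, read 5.02 and 5.10 on the Glut1-deficient arrays, against 6.55 and 6.14 on the WT arrays. The WT arrays differed by 0.41 and the gap between the genotypes was wider than that. Krt6b was 2.43-fold lower in Glut1-deficient cells (log2 fold change -1.28, SE 0.156, limma adjusted p = 0.0331), the lowest value of the family, and lay between -1.48 and -1.08 with any 1 array left out.

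Krt6a, its close paralogue and chromosomal neighbour, read 12.14 and 12.27, against 12.50 and 12.48. It lay lower on both Glut1-deficient arrays, at a log2 fold change of -0.29 (SE 0.0932, limma adjusted p = 0.169, or 0.0115 with an intensity trend). The coding sequences of Krt6a and Krt6b are known to be nearly identical. Probe sequences were not used here, so which of the rows share target sequence is not known, and the difference between the changes of the 2 genes was not tested. A row shared by Krt6b and the predicted gene Gm5478 read 3.04 and 2.90, against 3.42 and 3.26.

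Krt17, a type I keratin of wounded epidermis and hair follicles, read 11.75 and 11.82, against 12.11 and 12.09. Its log2 fold change of -0.31 (SE 0.0856) missed the threshold (limma adjusted p = 0.127) and passed with an intensity trend (adjusted p = 0.00399). Krt16, the usual type I partner of Krt6a, read 9.29 and 9.49, against 9.39 and 9.36. These overlapped, and the 95% interval of its log2 fold change was -0.26 to 0.28. The group median was -0.30, at -0.35 and -0.25 on the 2 Glut1-deficient arrays relative to the WT mean.

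Krt42, counted among the other keratins, is a type I gene next to Krt17 in the type I cluster and is known in mouse from the nail. It read 5.98 and 6.06 on the Glut1-deficient arrays, against 6.62 and 6.72 on the WT arrays. The arrays of a genotype differed by at most 0.10, and the genotypes did not overlap. Krt42 was 1.57-fold lower in Glut1-deficient cells (log2 fold change -0.65, SE 0.0916, limma adjusted p = 0.0419), and lay between -0.70 and -0.60 with any 1 array left out. Its neighbours Krt17 and Krt14 read lower too, at -0.31 and -0.37, while Krt16 between them was at 0.01. Whether the Krt42 row shares target sequence with its relatives was not examined.

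The Krt42 promoter is shown as that of a keratin that fell. It is RefSeq's for GRCm38.p6, chr11:100269902-100270201 on the minus strand, from 250 bases before to 50 after the gene start. Capitals mark matches to TATAAA and to GCCNNNGGC, the letters of a TATA box and of an AP-2 site.
Krt42: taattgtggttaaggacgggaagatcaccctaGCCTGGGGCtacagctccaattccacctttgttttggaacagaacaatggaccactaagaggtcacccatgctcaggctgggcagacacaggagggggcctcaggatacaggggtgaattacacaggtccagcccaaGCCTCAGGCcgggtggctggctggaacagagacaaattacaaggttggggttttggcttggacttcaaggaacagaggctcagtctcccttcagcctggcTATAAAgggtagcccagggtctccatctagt
In this window TATAAA begins at base 270, which is 19 bases after the gene start used here. GCCNNNGGC begins at bases 33 and 170, before the gene start. Neither motif, nor TGANTCA of AP-1 or GGGCGG of a GC box, was found in the Krt14 and Krt78 windows above, with both strands searched. Of the 37 promoter entries of 36 keratin genes, 19 held TATAAA (51.4%), against 13.6% of all 32851 entries, 2 held TGANTCA (5.41%, against 7.81%), 2 held GGGCGG (5.41%, against 35.7%) and 7 held GCCNNNGGC (18.9%, against 16.6%). These are matches of letters only, with no measured binding.

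**Figure D3:**
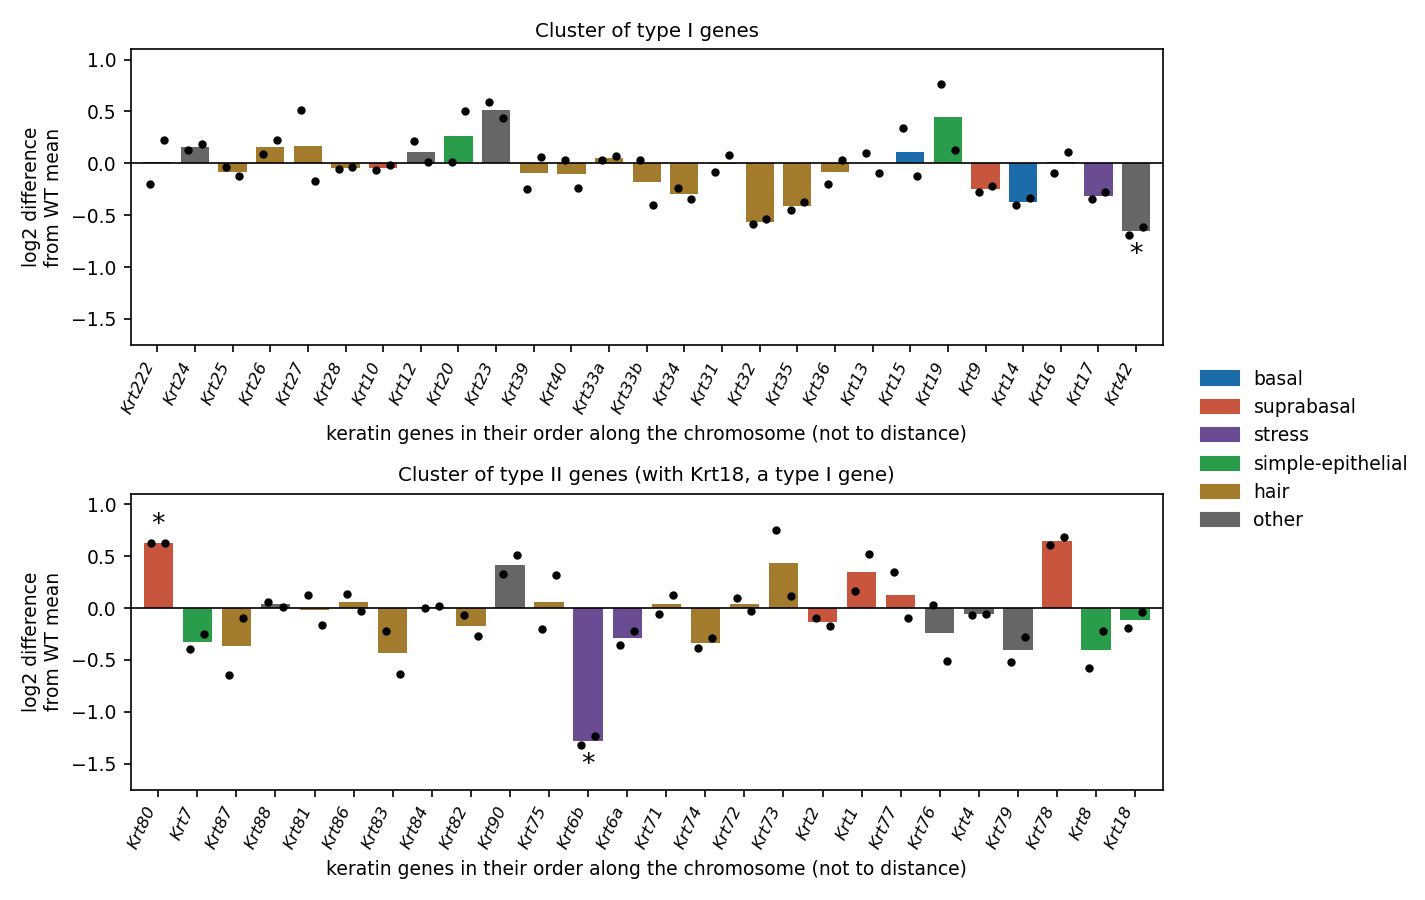
Log2 difference of each keratin from its WT mean, in gene order along the 2 keratin clusters, with bars for the log2 fold change, dots for Glut1-deficient arrays 1 and 2, colours for roles and stars at an adjusted p under 0.05. Krt14, Krt17 and Krt42 lie low at one end of the type I cluster, Krt6b and Krt6a are adjacent and low, and Krt80 and Krt7, also adjacent, point opposite ways. Krt5, between Krt6a and Krt71, has no row of its own and is not drawn.

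None of the 5 simple-epithelial keratins passed in limma, with 2 at unadjusted p under 0.05. Krt8, the type II keratin of simple epithelia, read 9.30 and 9.65 on the Glut1-deficient arrays, against 9.77 and 9.99 on the WT arrays. Its type I partner Krt18 read 9.87 and 10.03, against 9.91 and 10.23. Krt8 was lower on both Glut1-deficient arrays, at a log2 fold change of -0.40 (SE 0.155, limma adjusted p = 0.224), while Krt18 overlapped at -0.12 (95% interval -0.48 to 0.24). The second row of Krt18 had a log2 fold change of -0.11.

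Krt7, a type II keratin of ducts and glands, read 8.28 and 8.42, against 8.70 and 8.64. It did not overlap, and its log2 fold change of -0.33 (SE 0.0961, limma adjusted p = 0.147) passed with an intensity trend (adjusted p = 0.0317). Krt7 lies beside Krt80, which rose. Krt19, a type I keratin without the usual tail domain, read 5.69 and 5.05, against 4.85 and 4.99, and the 2 Glut1-deficient arrays were 0.64 apart. Krt20, a keratin of Merkel cells and gut, read 4.27 and 4.76, against 4.32 and 4.19. Neither passed, at log2 fold changes of 0.45 and 0.26. Krt8, Krt18 and Krt20 also mark Merkel cells, whose other markers had a median log2 fold change of -0.04 over 8 genes, 0 past the test (limma, 3 at unadjusted p under 0.05) and 2, Sox2 and Snap25, under the receptor level. The median of the 5 simple-epithelial keratins was -0.12, and it was 0.04 without WT array 2 and -0.28 without WT array 1.

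None of the 24 hair keratins passed (limma, 4 or 16.7% at unadjusted p under 0.05, against 22.2% of all genes, and 0 passed with an intensity trend), and 13 of them had a mean at or under the receptor level. Keratins of the hair cortex, cuticle and medulla were lower in 12 of 15 cases, with a median log2 fold change of -0.10. Those of the inner root sheath and companion layer were higher in 6 of 9 cases, with a median of 0.04. Over all genes, 10725 log2 fold changes were positive and 11454 negative. Of the 15 genes, 6 had a mean at or under the receptor level and 9 overlapped between genotypes. Of the 9 genes, 7 had such a mean and 6 overlapped. Both Glut1-deficient arrays lay below both WT arrays for 6 of the 15 (40%) and above both for 0. For the 9 genes these counts were 1 (11.1%) and 2 (22.2%). Among all genes the shares were 27.7% below and 25.5% above. The median over all 24 was -0.06, and it was 0.03 without WT array 2 and -0.19 without WT array 1.

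Krt83, a type II keratin of the hair cortex, read 6.24 and 5.83 on the Glut1-deficient arrays, against 6.50 and 6.41 on the WT arrays, at a log2 fold change of -0.43 (SE 0.157, limma adjusted p = 0.207). Krt32, a type I keratin of the hair cuticle, read 4.04 and 4.09, against 4.83 and 4.43, at -0.56 (SE 0.153, adjusted p = 0.127). Krt34, of the hair cortex, read 4.64 and 4.53, against 4.98 and 4.78. These 3 were lower on both Glut1-deficient arrays. Krt81, another cortex keratin, read 5.29 and 5.00, against 5.46 and 4.86, and overlapped. Krt73, an inner root sheath keratin, read 5.19 and 4.56, against 4.43 and 4.45, so 1 of the 2 Glut1-deficient arrays accounted for most of its log2 fold change of 0.43. Krt35 of the hair shaft, named here because it passed when genes under the receptor level were not tested (limma adjusted p under 0.05), read 3.74 and 3.82, against 4.20 and 4.18, a difference of -0.41 on the log2 scale (adjusted p = 0.0821 over all genes).

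Keratin-associated proteins, the matrix between hair keratin filaments, had 0 of 51 genes past the test (limma, 6 or 11.8% at unadjusted p under 0.05, against 22.2% of all genes), a median of 0.02 and 42 genes at or under the receptor level. Of 9 hair follicle markers other than keratins, 0 passed (limma, 3 at unadjusted p under 0.05) and the median was 0.01. Lhx2, a follicle transcription factor, read 6.25 and 6.28, against 6.25 and 6.29.

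Besides Krt42, 10 keratins outside these groups were measured and did not pass. Krt90 read 5.03 and 5.22 on the Glut1-deficient arrays, against 4.73 and 4.68 on the WT arrays, at a log2 fold change of 0.42 (SE 0.102, limma adjusted p = 0.106), with no overlap. Krt88 overlapped at 0.04, and Krt12, the keratin of the corneal epithelium, at 0.11. Krt79, which in mouse marks cells of the hair canal, read 3.60 and 3.84, against 4.33 and 3.91, at -0.40. Krt23, outside the rule for named genes and picked for its value, read 4.06 and 3.90, against 3.57 and 3.36, with a mean under the receptor level (difference 0.52, limma adjusted p = 0.0944). The mucosal keratins Krt4, Krt13 and Krt76 had means under the receptor level and overlapped between genotypes.

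**Figure D4:**
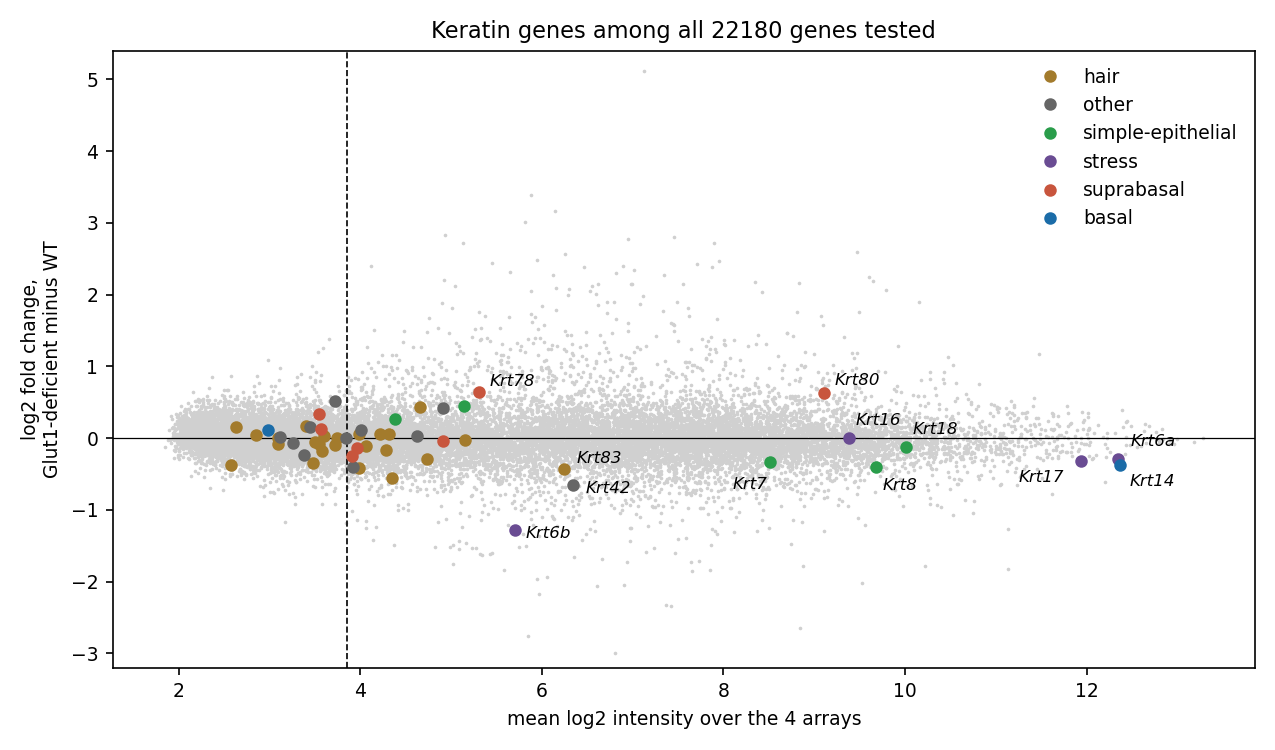
Log2 fold change, Glut1-deficient minus WT, against the mean log2 intensity over the 4 arrays, for all genes tested (grey) and the keratins (coloured by role), with a dashed line at the receptor level of 3.85. Krt14, Krt6a and Krt17 lie near the right edge and slightly below 0, while most hair keratins crowd around the dashed line.

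Of the 53 keratins, 16 had a mean above the median of all genes. Among these, 11 had negative log2 fold changes, with a median of -0.20, against a median of -0.02 over all genes above that level. Both Glut1-deficient arrays were below both WT arrays for 8 of the 16 (50%) and above both for 4 (25%), against 36.3% and 31.9% of all genes above that level. The 8 were Krt14, Krt17, Krt6a, Krt8, Krt7, Krt42, Krt83 and Krt6b. Among the 222 genes in the top 1% by level, which include Krt14, Krt6a and Krt17, the median log2 fold change was -0.02. Perp, a desmosome protein and keratinocyte marker, was higher at 0.30, Cdh1 was at -0.12 and Itga6 at -0.31, and none of these 3 passed (limma adjusted p = 0.136, 0.539 and 0.153). Of the 10 keratinocyte markers, 1 fell (10%, against 1.05% of all genes). This was Fat2, a protocadherin, at 5.23 and 5.94 against 7.72 and 7.56 (limma adjusted p = 0.0318). Both Glut1-deficient arrays were below both WT arrays for 8 of the 10 (80%). They were above both for 2 (20%), Perp and Dsg3. At an unadjusted p under 0.05 in limma there were 8 of the 10 (80%), against 32.4% of all genes above the median level.

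Genes that act on keratins, and intermediate filament genes other than keratins, were read from 6 lists, together called partner genes. In these lists 4 of 73 tested genes rose and 1 fell, or 6.85%, against 2.84% of all genes (1.79% rose and 1.05% fell). The lists are small, and single calls in them are given as counts beside that background. The median over them was 0.02. The risen genes were 3 transcription factors and a desmosomal cadherin. The fallen gene encodes a nuclear lamin and is from the list of intermediate filament genes other than keratins.

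Of 24 regulators of keratin genes, 3 rose, 0 fell and 21 did not pass. Klf4, a factor of suprabasal differentiation, read 8.43 and 8.37 on the Glut1-deficient arrays, against 7.52 and 7.51 on the WT arrays (log2 fold change 0.88, SE 0.0848, limma adjusted p = 0.0216). Ovol1, a repressor active as keratinocytes stop dividing, read 6.72 and 6.90, against 5.87 and 5.74 (1.01, SE 0.109, adjusted p = 0.0272). Cebpb, which is known to act in suprabasal keratinocytes, read 7.98 and 7.78, against 6.86 and 7.06 (0.92, SE 0.122, adjusted p = 0.0389). These 3 did not overlap between genotypes. The list median was 0.05, with 15 positive and 9 negative log2 fold changes. At an unadjusted p under 0.05 in limma there were 12 of the 24 (50%, against 22.2% of all genes). Both Glut1-deficient arrays lay above both WT arrays for 9 (37.5%, against 25.5% of all genes) and below both for 8 (33.3%, against 27.7%). Among the 8 were Nfe2l2 at -0.46 and Trp63 at -0.29, named after their values were seen (limma adjusted p = 0.0936 and 0.155).

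Desmosomes anchor keratin filaments at cell borders. Of 7 desmosomal cadherins, 1 rose, 0 fell and the list median was 0.31. The risen gene, Dsg1b, read 4.41 and 4.42, against 3.72 and 3.61 (log2 fold change 0.75, SE 0.0901, limma adjusted p = 0.0318). Its WT values lay under the receptor level of 3.85, and its mean over the 4 arrays was 4.04. Its close paralogue Dsg1a, named after its values were seen, lay the other way without overlap, at 4.86 and 4.71 against 5.67 and 5.09 (log2 fold change -0.59, SE 0.207, limma adjusted p = 0.193). Whether rows of these paralogues share target sequence was not examined. The other 5 had positive log2 fold changes and did not pass, among them Dsc2 at 0.48, Dsg3 at 0.47 and Dsc3 at 0.31. Of the 7 cadherins, 5 lay above both WT arrays (71.4%, against 25.5% of all genes) and 1 below both (14.3%, against 27.7%). At an unadjusted p under 0.05 in limma there were 6 of them (85.7%, against 22.2%). Of 9 proteins that link keratins to desmosomes or hemidesmosomes, 0 passed (limma, 3 at unadjusted p under 0.05), and the median was 0.01. Dst, which ties keratin to hemidesmosomes, was at 0.57 (adjusted p = 0.0527), Pkp2, a plakophilin, at 0.52 and Ppl, periplakin, at 0.28.

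Of 10 genes that bundle or crosslink keratin filaments during cornification, 0 passed (limma, 4 at unadjusted p under 0.05), with a median of 0.08. Rptn, the granular layer protein repetin, read 5.21 and 4.92, against 4.16 and 4.40 (log2 fold change 0.78, limma adjusted p = 0.0675). Hrnr, with a mean under the receptor level, was at 0.33, and Tchh, trichohyalin of the inner root sheath, at -0.28. Of 8 genes of keratin folding and turnover, 0 passed (limma, 2 at unadjusted p under 0.05), and the median was -0.15. Tchp, trichoplein, a keratin-binding protein, was at -0.38, the co-chaperone Dnajb6 at -0.22 and the small heat shock protein Hspb1 at -0.16.

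Of 15 intermediate filament genes other than keratins, 1 fell, 0 rose and 14 did not pass, with a median of -0.06. Lmnb1, the nuclear lamin B1, read 7.90 and 8.05, against 8.74 and 8.62 (log2 fold change -0.71, SE 0.104, limma adjusted p = 0.0447). Vim, the filament protein of fibroblasts and melanocytes, was singled out after its values were seen. It read 10.40 and 9.44, against 8.38 and 8.07, at a log2 fold change of 1.70 (SE 0.33, adjusted p = 0.0722). Like Vim, the fibroblast genes Pdgfra and Dcn were higher on Glut1-deficient array 1 than on array 2, Pdgfra at 8.64 and 7.47 and Dcn at 8.18 and 7.01, against 5.97 and 5.84 and 5.65 and 5.52 on the WT arrays.

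**Figure D5:**
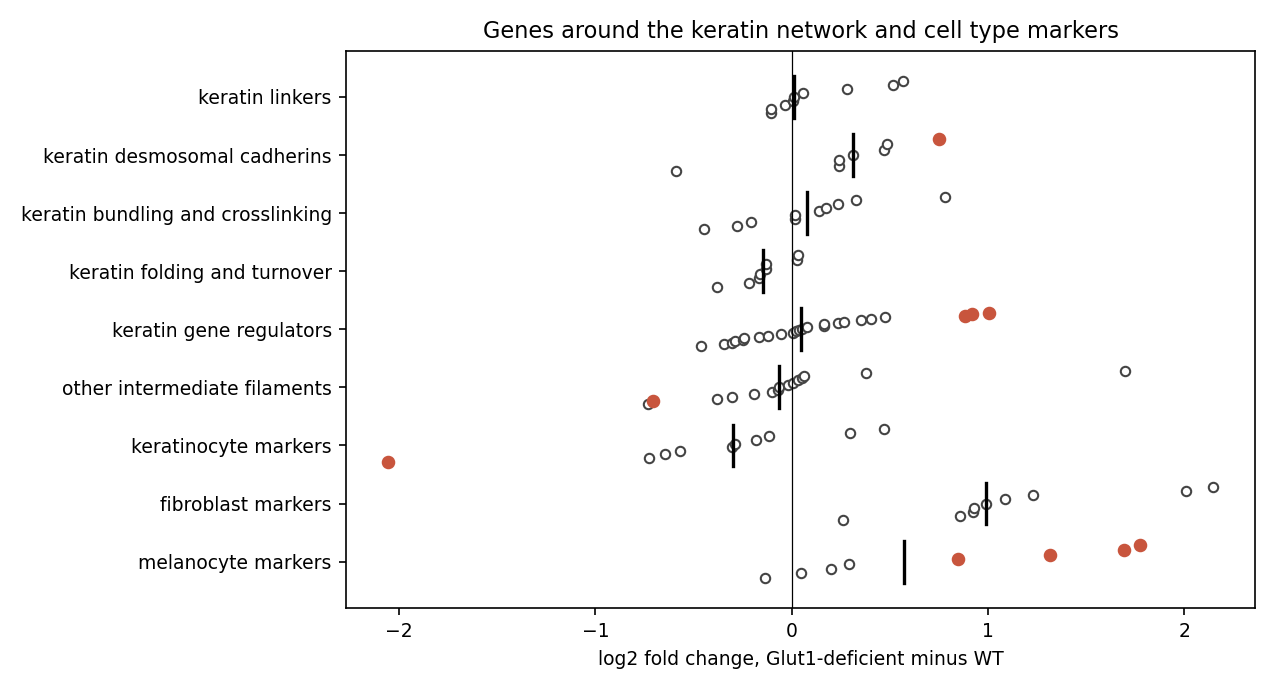
Log2 fold change, Glut1-deficient minus WT, of each gene in 6 lists of genes around the keratin network and in 3 lists of cell type markers. Filled points passed at an adjusted p under 0.05 and black lines are list medians, which lie at 0.31 or closer to 0 for the 6 lists and at 0.99 for fibroblast markers.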

How the data were processed

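RNA of 4 pools of cultured mouse keratinocytes was measured on MoGene 2.0 arrays. The deposited log2 values, 1 per transcript cluster, come from RMA in Affymetrix Expression Console, as the submitters' processing notes name them. The sources used here give no version, setting or genome build. RMA sets all arrays to a common distribution, so changes are relative to other genes. Of 41345 rows, 23521 had 1 gene symbol, 1814 several and 16010 none. The gene identifiers of 23328 rows were found in the reference gene table of GRCm38.p6, and 0 symbols differed. The row with the highest mean stood for each of 22180 genes.

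The difference Glut1-deficient minus WT came from lmFit and eBayes of limma 3.58.1 under R 4.3.3 (no trend, 2 residual degrees of freedom and a prior worth 2.95), two-sided, adjusted over all genes, with a threshold of 0.05. For a single value, 2 against 2 arrays allow no two-sided exact permutation p below 0.333. Precision is limited by there being 4 arrays. Hybridisation batches were not examined. The labels call the arrays biological replicates. Whether pools share mice or days is not stated, and p-values therefore reflect only how much these pools vary. Replicate arrays correlated at 0.995 (Glut1-deficient) and 0.996 (WT), against 0.987 to 0.991 between genotypes. On simulated arrays with 22180 genes, log2 shifts of 0.5 were recovered for 0 of 50 genes, shifts of 1 for 28 of 50, shifts of 2 for 50 of 50 and shifts of 3 for 49 of 50, with 10 false calls. Only these genes were shifted, fewer than the 630 genes that passed in the data. The adjustment depends on how many genes change, so the recovered shares need not hold for the real arrays.

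The members and lists were chosen with earlier results of these data known. Named were Slc2a1, every keratin that passed, all basal, suprabasal, stress and simple-epithelial keratins, the 5 hair and 5 other keratins with the highest means, all partner genes that passed or else the 3 with the smallest p, and up to 3 genes per cell type list with the highest means. Krt88, in no list, was put with the other keratins. Krt85 and list members without a row were not analysed here. Alternatives concerned the variance model, normalization, dim genes, rows per gene, single arrays, a replicate block and thresholds. Figures were drawn with matplotlib 3.10.9.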

Additional observations from a re-analysis of the deposited data

How the results depend on the processing

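The count of 3 keratins held with array medians centred, quantile normalization repeated, every row tested, the mean of a gene's rows and rows of several symbols added, the last chosen after seeing the data. It was 8 with an intensity trend, with or without robust estimation (all genes 2671 and 2729, partner genes 21 in both). It was 8 of 16 tested among genes above the median level (all genes 2327 of 11090, or 21.0%, and partner genes 19 of 51). It was 6 of 31 among genes above the receptor level (all genes 1776 of 13891, or 12.8%, and partner genes 15 of 64). At thresholds of 0.1 and 0.01, 7 and 0 keratins, 1855 and 4 genes and 15 and 0 partner genes passed in limma. With any 1 array left out, all 3 counts were 0. The replicate numbers are not known to pair the samples (correlation of deviations -0.025), and with the replicate block 37 genes, 0 keratins and 0 partner genes passed. Among genes above the median level, group medians were -0.37 for the 1 basal, 0.63 for the 3 suprabasal, -0.23 for the 2 hair and -0.12 for the 2 other keratins. Above the receptor level they were -0.37 for the 1 basal and -0.041 for the 5 suprabasal ones. These filters leave fewer members. With single arrays left out, medians ranged from -0.25 to -0.01 (basal), -0.01 to 0.18 (suprabasal), -0.35 to -0.25 (stress), -0.19 to 0.033 (hair), -0.28 to 0.040 (simple-epithelial) and 0.012 to 0.058 (other). Signs turned for Krt81 (0.00037) and Lhx2 (0.018) with centring, Myog (-0.014) with quantile normalization and Syp (-0.12) with the mean of rows. Leaving out an array turned the sign of Krt15 (-0.14 to 0.36), Krt2 (-0.30 to 0.033), Krt10 (-0.15 to 0.064), Krt77 (-0.095 to 0.35), Krt16 (-0.089 to 0.11), Krt81 (-0.32 to 0.28), Krt18 (-0.28 to 0.040), Syp (-0.073 to 0.11), Lhx2 (-0.025 to 0.014), Cd3e (-0.058 to 0.011), Myog (-0.17 to 0.19) and Tnnt3 (-0.049 to 0.10). For these signs and medians the cause was not tested.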

Other observations

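Marker lists not set beside a keratin group above gave the following values. Of 7 sebocyte markers, 0 passed (limma, 1 at unadjusted p under 0.05), with a median log2 fold change of -0.04. Scd1, a stearoyl-CoA desaturase, was at -0.34, Plin2 at -0.20 and Dgat2 at 0.30. Of 6 immune markers, 0 passed (limma, 1 at unadjusted p under 0.05), and their means ran from 2.97 to 4.12. Cd207, of Langerhans cells, read 3.95 and 3.90 on the Glut1-deficient arrays, against 3.98 and 4.06 on the WT arrays, while Csf1r was at -0.29 and Cd3e at -0.02. Of 6 endothelial markers, 1 rose (16.7%, against 1.79% of all genes). This was Kdr, a VEGF receptor, at 7.72 and 7.59 against 5.08 and 5.48 (limma adjusted p = 0.0136). Pecam1 and Cdh5 were at -0.35 and -0.10. Tek, Emcn and Cldn5, the 3 with means under the receptor level, were at 0.08, 0.14 and 0.11. Thus 4 of the 6 endothelial markers had positive and 2 had negative log2 fold changes, with a median of 0.095. Of 6 muscle markers, 0 passed (limma, 1 at unadjusted p under 0.05), with Acta1 at -0.28, Tnnt3 at 0.03 and Myog at 0.01. Among Merkel cell markers, Rab3c was at 0.70, Syp at 0.02 and Piezo2 at -0.08. In the hair follicle list, Sox9 was at 0.17 and Gata3 at 0.08. Of the 4 melanocyte genes that rose, Dct rose 3.42-fold, Pmel 3.24-fold and Tyrp1 2.49-fold. Col1a1, of the fibroblast list, was at 0.99 (limma adjusted p = 0.103).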
